A study of Homo sapiens with 12 samples.

Results

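Cells given asparagine alone were compared with untreated cells across all genes, using 6 of the 12 libraries of the series. The cells are SRA01/04, an immortalised line of human lens epithelial cells. The untreated group, NC, is the normal culture without added asparagine or 1,2-DHN, and the second group, NC-A, is the same culture supplemented with asparagine. Each group has 3 libraries, and RNA was taken after 24 hours. The other 6 libraries come from the same line treated for 24 hours with 1,2-DHN alone (DHN, 3 libraries) or with 1,2-DHN and asparagine (DHN-A, 3 libraries); they entered the estimate of the spread and a closing comparison. The libraries were chosen by their labels alone. The sources used here do not give the doses or the medium, nor whether the 3 libraries of a group stand for different cultures. The p-values therefore describe only how these libraries vary, which may be technical. A line is also 1 population of transformed cells, not lens tissue.

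Asparagine is an amino acid that most cells can make from aspartate and glutamine with the enzyme ASNS. When amino acids run short, uncharged transfer RNA activates the kinase GCN2, and stress in the endoplasmic reticulum activates the kinase PERK. Both phosphorylate the initiation factor eIF2, which slows most translation but favours translation of ATF4, a transcription factor. ATF4 pairs with C/EBP proteins and binds C/EBP-ATF response elements in genes for amino acid synthesis, amino acid import and transfer RNA charging. The same factor is known to act on ASNS, CHAC1, TRIB3, SESN2 and, under strong stress, DDIT3. Lens cells also take up inositol and taurine as organic osmolytes, through the transporters encoded by SLC5A3 and SLC6A6, which the transcription factor NFAT5 is known to regulate.

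The core letters of the C/EBP-ATF response element, TGATGNAA, were searched on both strands in the 250 bases before each RefSeq start site (GRCh38.p14). Over 5 lists of amino acid genes, 55 tested members were called higher in NC-A (the calls are described further on; 9.32% of all tested genes were called higher), and 38 of them had a promoter in the table. The letters stood before 9 of these 38 genes (23.7%), before 5 of 75 other tested members of those lists, and before 283 of 11429 tested genes with a promoter (2.48%). Of all genes called higher with a promoter, 38 of 1219 had them (3.12%), and of those called lower 29 of 1521 (1.91%). Over the whole table, 3.14% of promoters and 3.89% of genes had them. A match is a description of these letters, not evidence of binding. The lists were chosen with earlier results of these data known, so the shares in them are also a description only. The matched windows of the 4 genes with the largest changes are shown because they carry the motif, with the match in capitals, 60 bases each, 5′ to 3′ on the strand of the gene.
ASNS: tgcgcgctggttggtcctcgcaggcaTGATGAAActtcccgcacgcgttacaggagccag
CHAC1: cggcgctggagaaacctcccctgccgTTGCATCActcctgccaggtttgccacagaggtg
GARS1: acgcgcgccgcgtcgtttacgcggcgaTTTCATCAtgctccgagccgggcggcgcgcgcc
JDP2: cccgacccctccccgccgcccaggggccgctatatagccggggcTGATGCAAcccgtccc
The ASNS window lies at chr7:97872443-97872502 on the minus strand, and the match starts 68 bases before the start site. The CHAC1 window lies at chr15:40953236-40953295 on the plus strand; its match is on the opposite strand and starts 209 bases before the start site. The GARS1 window lies at chr7:30594818-30594877 on the plus strand, with an opposite-strand match 33 bases before the start site. The JDP2 window lies at chr14:75427962-75428021 on the plus strand, with the match 16 bases before the start site. The other 5 genes with the letters were AARS1, SLC1A5, IARS1, MTHFD1L and CEBPG. The 250 bases before a RefSeq start site of ATF4 and of the inositol transporter gene SLC5A3 follow. These genes gave the firmest rise and the firmest fall in their lists. Neither stretch holds the letters.
ATF4: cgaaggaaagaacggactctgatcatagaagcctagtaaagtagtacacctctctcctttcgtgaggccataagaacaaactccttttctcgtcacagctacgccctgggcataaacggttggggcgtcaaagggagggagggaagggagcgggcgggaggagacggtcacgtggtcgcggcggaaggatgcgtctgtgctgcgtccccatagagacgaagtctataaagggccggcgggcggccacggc
SLC5A3: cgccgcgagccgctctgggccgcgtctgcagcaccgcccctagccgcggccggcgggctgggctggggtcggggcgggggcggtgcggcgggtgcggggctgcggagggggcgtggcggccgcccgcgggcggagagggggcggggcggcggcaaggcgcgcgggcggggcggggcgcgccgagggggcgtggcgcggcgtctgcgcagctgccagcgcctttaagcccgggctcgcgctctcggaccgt
The ATF4 region is chr22:39520309-39520558 and the SLC5A3 region is chr21:34073328-34073577, both on the plus strand. The ATF4 region lies within the GENCODE bounds of the gene given below. It thus stands before a start site inside the gene and does not cover the bases before the gene's first base.

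Total counts were 16514049, 21151832 and 24225424 in NC 1, 2 and 3, and 13529028, 13785921 and 17478970 in NC-A 1, 2 and 3; over the whole series they ran from 12381071 to 27526206. Mitochondrial genes took 2.73% to 3.23% of the counts. Of 28 lens markers, 7 had a mean above 1 CPM (counts per 1000000 counts of the scaled library size) in NC, among them the lens transcription factors PAX6 (24.1 to 26.0 CPM) and SIX3 and the gap junction gene GJA1 (130 to 138 CPM). Another 7, including the crystallins CRYGC and CRYGD, had no count in the 6 libraries, and the mean of CRYAA in NC was 0.0282 CPM. Fibroblast markers were present, with COL1A1 at 1184 to 1264 CPM in NC, and 7 of 10 were above 1 CPM. By their means in NC, no immune marker of 10 reached 1 CPM, while 2 of 10 keratinocyte and 2 of 10 pigment cell markers did. In NC-A the immune marker ITGAM had a mean of 1.18 CPM.

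NC-A 1 stood apart from the other libraries. On the first principal component of all tested genes it lay at 65.1, against 12.5 and 10.4 for NC-A 2 and NC-A 3. On the first component of protein-coding genes alone the 3 libraries lay together, at -19.4, -17.1 and -16.1. On the second they lay at -13.9, -7.95 and -6.52. Log2 differences over protein-coding genes had an SD of 0.369 and 0.351 between NC-A 1 and NC-A 2 or NC-A 3. Between NC-A 2 and NC-A 3 it was 0.308. Processed pseudogenes, which are reverse-transcribed copies of other genes, took 0.163% of the counts in NC-A 1. They took 0.334% to 0.389% in the other 5 NC and NC-A libraries. In DHN 1, 2 and 3 they took 0.374%, 0.376% and 0.405%, and in DHN-A 1, 2 and 3 0.309%, 0.254% and 0.358%. A smaller deficit thus also stood in DHN-A 1 and DHN-A 2. Of 226 processed pseudogenes with a mean of at least 50 counts, 133 were lower by over 1 log2 unit in NC-A 1 than in the other NC-A libraries, against 17 of 11331 protein-coding genes. EEF1A1P11, a copy of the elongation factor gene EEF1A1, had 912, 864 and 1125 counts in NC and 6, 708 and 861 in NC-A. EEF1A1 itself had 4379, 4358 and 4241 CPM in the 3 NC-A libraries. Results are therefore given with and without NC-A 1.

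**Figure D1:**
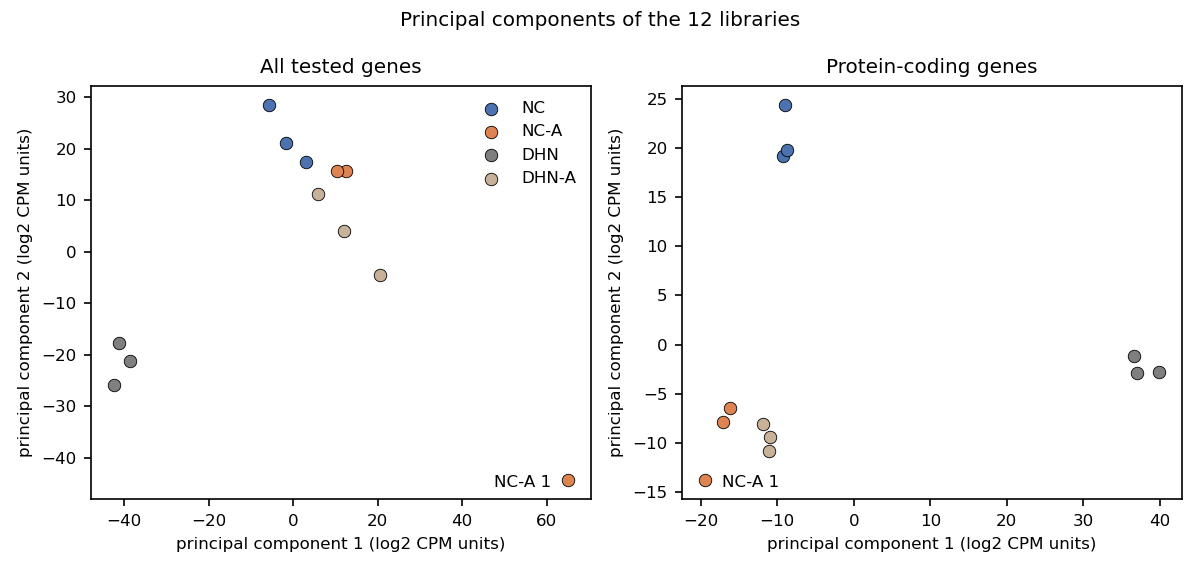
First and second principal components of log2 CPM for the 12 libraries, from all tested genes (left) and from protein-coding genes only (right); each point is a library, coloured by group. NC-A 1 lies at 65.1 on the first component of all genes and beside NC-A 2 and NC-A 3, at -19.4, on that of protein-coding genes.

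Many genes differed by small amounts between NC-A and NC. Between libraries of a group, the fit's common coefficient of variation was 4.60%. Whether a group holds different cultures is not known, so asparagine and differences between cultures cannot be told apart. With edgeR's quasi-likelihood test and a Benjamini-Hochberg adjusted p under 0.05, 3612 of 17889 tested genes (20.2%) differed between NC-A and NC. Of these, 1668 (9.32% of tested genes) were higher and 1944 (10.9%) were lower in NC-A. The median size of a called change was 0.28 on the log2 scale, or 1.21-fold, and 138 called genes were at least 2-fold higher and 54 at least 2-fold lower. In 6034 tested genes (33.7%) the 3 values of one group did not overlap the 3 of the other, and 3439 of the called genes were among them. Against a minimum change of 1.2-fold, 381 genes passed, 214 higher and 167 lower. Without NC-A 1, 2982 of 18527 tested genes (16.1%) were called, 1328 higher (7.17%) and 1654 lower (8.93%). Of the 3612 genes, 2754 were then still called in the same direction and 0 had changed sign. With no filter on low counts the split shifted to 1044 higher and 2143 lower.

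**Figure D2:**
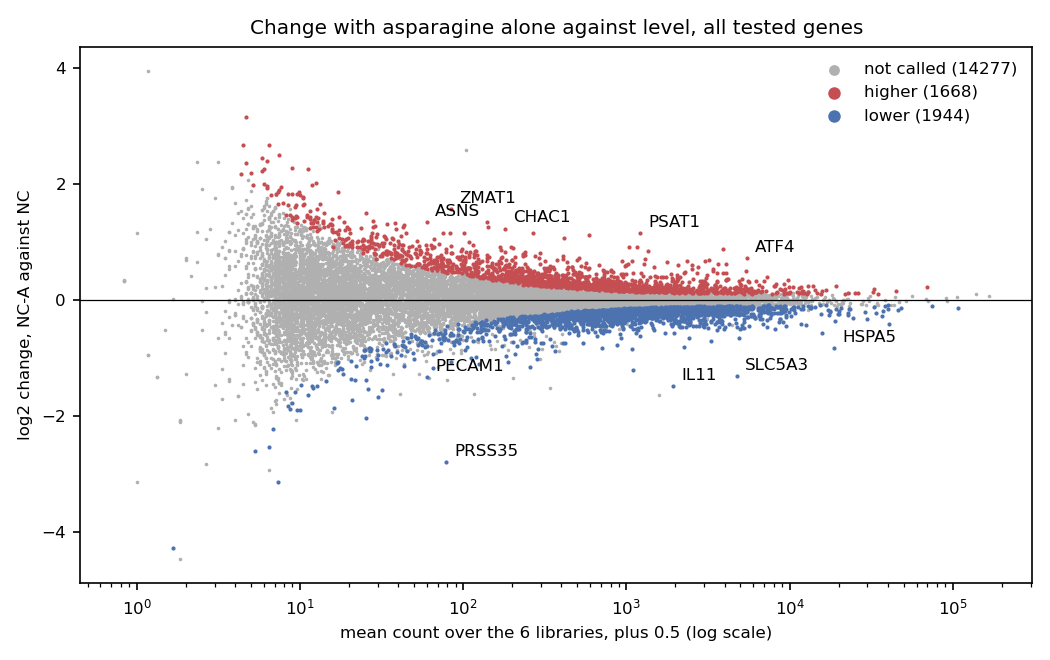
Log2 change of NC-A against NC for every tested gene (y axis) against its mean count over the 6 libraries plus 0.5 (log x axis); red points were called higher (1668), blue points called lower (1944) and grey points not called. ATF4 and SLC5A3 stand far from zero at high counts; at low counts some changes of that size were called and others were not.

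The genes named below were taken by a rule given with the processing. Of 119 named genes that were called, 111 were called in the same direction without NC-A 1, and leaving it out moved their log2 change by a median of 0.017 and by at most 0.23 (PRSS35). The 8 whose call was lost are SIX3, EIF2AK1, SHMT1, GFPT1, ZFP36L1, LRRC8D, TKT and IL1A. All of these except ZFP36L1 also lost their call when some other library was left out, EIF2AK1 and GFPT1 without NC 2 or NC-A 2, SHMT1 without NC 3 or NC-A 3, LRRC8D and IL1A without NC 1, NC 3 or NC-A 3, SIX3 without NC 1, NC 2 or NC-A 3, and TKT without NC 1, NC 3, NC-A 2 or NC-A 3.

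Genes of the amino acid response stood higher in NC-A. Of 30 tested regulators and linked genes, 16 rose and 4 fell, with a median log2 change of 0.27. Over all tested genes 9.32% rose, 10.9% fell and the median was 0.0031. The lists were chosen with earlier results of these data known, so such counts are a description only. ATF4 had 248, 236 and 251 CPM in NC 1, 2 and 3 and 400, 407 and 398 CPM in NC-A 1, 2 and 3. Every NC-A library was thus far above every NC library, and the log2 change was 0.71 ± 0.0369 (SE, adjusted p = 7.17e-20), a 1.64-fold rise. ATF4 lies at 39519695 to 39522685 on chromosome 22 (GRCh38, GENCODE release 29). CHAC1, which degrades glutathione, had 5.47, 7.10 and 6.89 CPM in NC and 16, 16.5 and 13.7 CPM in NC-A. The groups did not overlap, and CHAC1 rose 2.34-fold (log2 1.23 ± 0.111, adjusted p = 5.82e-12). SESN2, a leucine sensor that restrains the kinase complex mTORC1, went from 45.7–49.5 CPM in NC to 71.3–75.4 CPM in NC-A (log2 0.62). TRIB3, a pseudokinase that binds ATF4, stood at 32.6 to 38.0 CPM in NC and 48.6 to 50.5 CPM in NC-A (log2 0.49).

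Other members of this list gave a mixed picture. SLFN5, an interferon-inducible gene placed in the list, rose by 0.70 on the log2 scale, from 56.4–62.2 CPM in NC to 94.3–96.8 CPM in NC-A. JDP2, which encodes a partner of AP-1 proteins, rose by 0.69, and the stress gene NUPR1 by 1.02, from 1.30–1.69 CPM in NC to 2.81–3.68 CPM in NC-A. The 4 that fell were ATF5 (log2 -0.36), a relative of ATF4, EIF2AK3 (-0.34), which encodes PERK, HERPUD1 (-0.22), a gene of endoplasmic reticulum protein degradation, and EIF2AK1 (-0.14), which encodes the heme-regulated eIF2 kinase. DDIT3, which encodes the pro-apoptotic factor CHOP, was not called. It had 14.5, 11.7 and 11.4 CPM in NC and 12, 12.1 and 13.4 CPM in NC-A, values that overlap, with a log2 difference of 0.02 ± 0.104 (adjusted p = 0.938). Of its exon bases, 31.6% are shared with a gene on the opposite strand, and the sources used here do not state whether counting used the strand. The sign of the DDIT3 difference turned under 5 other settings. Without NC-A 1 the list stood at 16 higher and 3 lower, and 11 members rose by more than 1.2-fold under the test against that minimum.

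Several enzymes that make asparagine and serine rose. ASNS, the asparagine synthetase, had 2.67, 1.59 and 1.99 CPM in NC and 4.95, 5.52 and 5.17 CPM in NC-A, so that the lowest NC-A library was above the highest NC library. It rose 2.54-fold (log2 1.34 ± 0.196, adjusted p = 9.91e-07). These ASNS values rest on a mean of 59 counts, and 44.6% of its exon bases are shared with another gene on the same strand, so its level is uncertain. In the list of asparagine, aspartate, glutamine and proline enzymes, 10 of 33 tested members rose and 2 fell, with a median of 0.06. The shares over all tested genes were 9.32% and 10.9%. PCK2, the mitochondrial phosphoenolpyruvate carboxykinase, rose by 0.90 on the log2 scale and GPT2, a mitochondrial alanine transaminase, by 0.45. One of those that fell was GFPT1 (-0.14), which starts hexosamine synthesis from glutamine. With NC-A 1 left out, 9 members rose and 1 fell.

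Of 24 tested serine, glycine and one-carbon enzymes, 10 rose and 3 fell, with a median of 0.23, where 9.32% of all tested genes rose and 10.9% fell. PSAT1, the transaminase of serine synthesis, had 45.1, 45.6 and 46.3 CPM in NC and 102, 105 and 97.2 CPM in NC-A. Both groups were tight, and PSAT1 rose 2.22-fold (log2 1.15 ± 0.0516, adjusted p = 3.44e-22). PHGDH, the first enzyme of the same pathway, rose by 0.67 on the log2 scale, from 134–141 CPM in NC to 214–224 CPM in NC-A. ALDH1L2, a mitochondrial folate enzyme, rose 2.16-fold, from 21.9–23.6 CPM in NC to 47.1–50.1 CPM in NC-A. Among the mitochondrial folate enzymes, MTHFD2 rose by 0.65 and SHMT2 by 0.31; 33.2% of the exon bases of MTHFD2 are shared with a gene on the opposite strand. The 3 that fell were the thymidylate synthase TYMS (-0.27), the serine carrier SFXN1 (-0.17) and the cytosolic hydroxymethyltransferase SHMT1 (-0.16). For TYMS, 46.6% of exon bases overlap a gene on the opposite strand. Without NC-A 1, 8 members rose and 3 fell.

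Cytosolic aminoacyl-tRNA synthetases, which load amino acids onto transfer RNA, were higher in NC-A. Of 24 listed genes, 12 rose and 1 fell, with a median log2 change of 0.23. Over all tested genes 9.32% rose and 10.9% fell. The list also holds AIMP1, AIMP2 and EEF1E1, which are parts of the synthetase complex and not synthetases, and none of these was called. The summed level of the list was 3466 to 3543 CPM in the NC libraries and 4411 to 4447 CPM in the NC-A libraries. GARS1, the glycyl enzyme, had 163, 169 and 163 CPM in NC and 303, 300 and 308 CPM in NC-A, a 1.84-fold rise (log2 0.88 ± 0.0392, adjusted p = 2.79e-22). YARS1 (tyrosyl) rose by 0.68 on the log2 scale, MARS1 (methionyl) by 0.62 and AARS1 (alanyl) by 0.61. NARS1, which charges the transfer RNA for asparagine, rose by 0.49, from 160–175 CPM in NC to 230–239 CPM in NC-A. QARS1, which charges the one for glutamine, fell by 0.22, from 166–177 CPM in NC to 144–150 CPM in NC-A. None of the 17 mitochondrial synthetases was called by edgeR's quasi-likelihood test, DESeq2 or limma-voom; 3 were higher and 0 lower at an unadjusted p under 0.05, and the median was 0.10. With NC-A 1 left out, 13 cytosolic synthetases rose and 1 fell.

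Amino acid transporters were split, with 8 of 32 higher, 6 lower and a median of -0.02. Over all tested genes 9.32% were higher and 10.9% lower. SLC7A11, the cystine-glutamate exchanger, had 50.1, 49.6 and 45.7 CPM in NC and 96.4, 87.1 and 90.2 CPM in NC-A, a 1.88-fold rise (log2 0.91 ± 0.0517, adjusted p = 1.73e-18). Its partner chain SLC3A2 rose by 0.53 on the log2 scale, from 114–124 CPM in NC to 172–176 CPM in NC-A. The neutral amino acid exchangers SLC1A4 and SLC1A5 rose by 0.67 and 0.46. SLC38A2, a sodium-coupled importer of small neutral amino acids including asparagine and glutamine, moved the other way. It had 258, 275 and 248 CPM in NC and 186, 189 and 190 CPM in NC-A, with no overlap, and fell by 0.47 on the log2 scale (SE 0.0397, adjusted p = 9.93e-13). SLC1A3, a glutamate and aspartate importer, had the lowest value of the list, a log2 change of -1.38 ± 0.341 from 1.61–2.36 CPM in NC to 0.345–1.16 CPM in NC-A. With a mean of 25 counts, SLC1A3 lost its call when NC-A 3 was left out. SLC7A5, the large chain that pairs with SLC3A2, had 0 to 2 counts in each of the 6 libraries and was not tested. It has pseudogene copies, and how reads shared with such copies were counted is not known here, so these counts do not show that the gene was off. SLC1A3 and SLC1A5 were chosen after their values were seen. Leaving out NC-A 1 gave 8 higher and 5 lower.

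**Figure D3:**
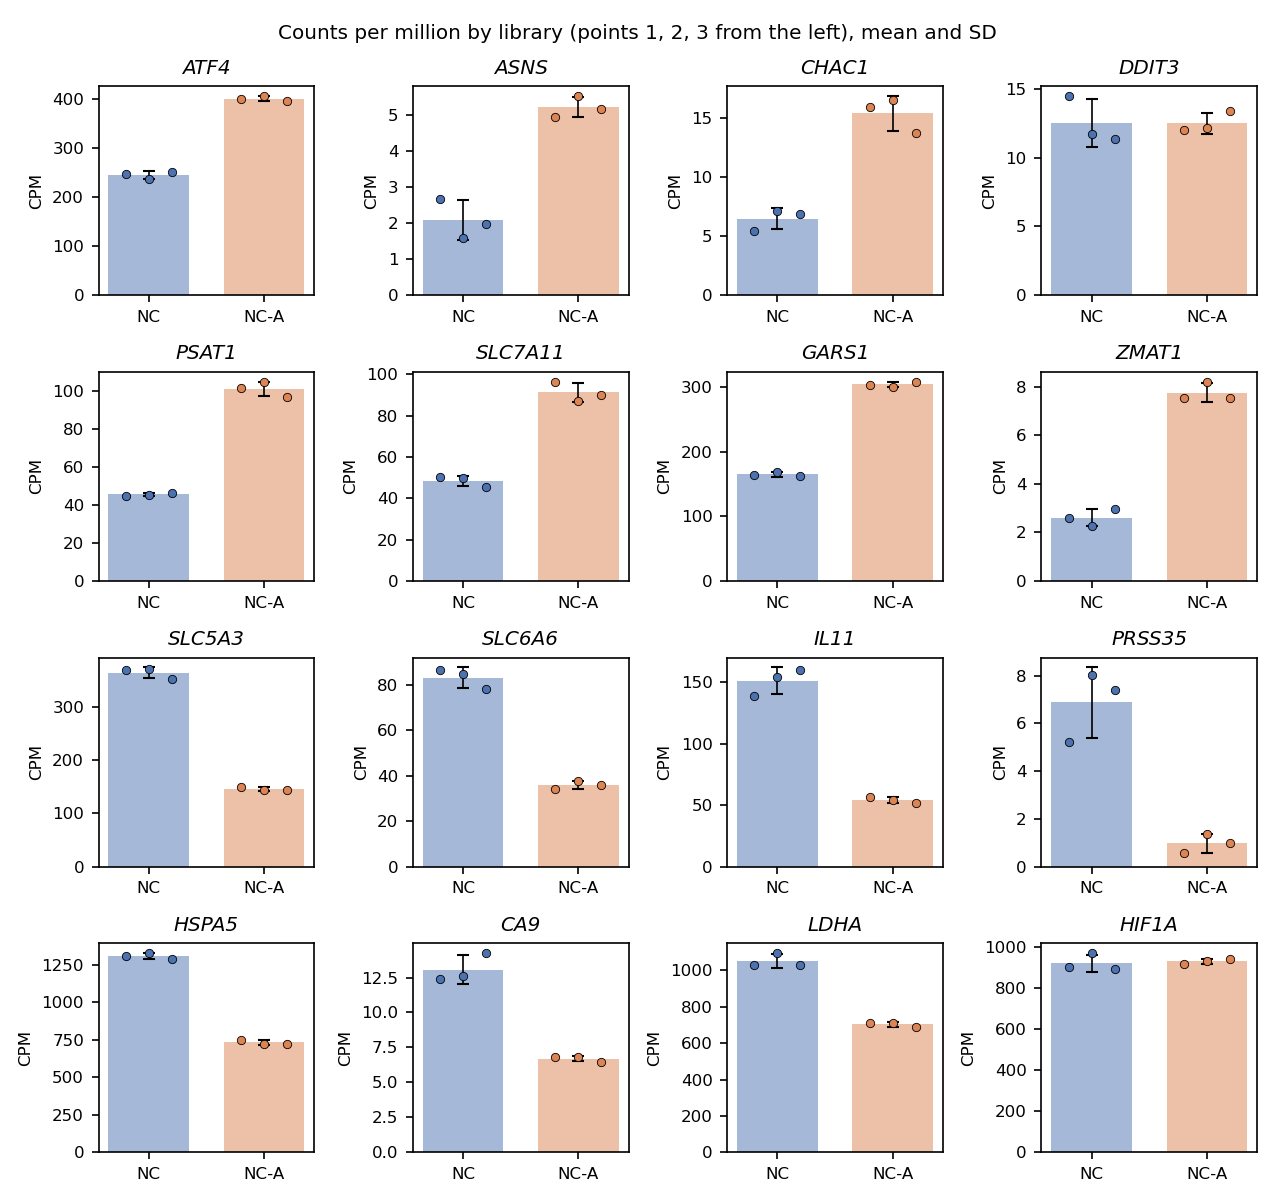
CPM of 16 genes in the 3 NC libraries and the 3 NC-A libraries; points are libraries, bars are means and error bars are SD (n = 3). Among the first 8 panels only DDIT3 overlaps between the groups, and SLC5A3, SLC6A6, IL11, PRSS35, HSPA5, CA9 and LDHA are lower in every NC-A library, while HIF1A overlaps.

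Ribosomal protein genes rose slightly but widely. Of 78 cytosolic ribosomal protein genes, 36 rose and none fell (edgeR's quasi-likelihood test), with a median of 0.11 on the log2 scale. Over all tested genes 9.32% rose and 10.9% fell. Of the 78, 39 were higher without overlap between the groups, which 16.5% of all tested genes were. None fell at an unadjusted p under 0.05, with DESeq2 or with limma-voom either. RPL12, the member with the largest called change, had 279, 295 and 298 CPM in NC and 391, 347 and 343 CPM in NC-A (log2 0.31 ± 0.0414, adjusted p = 1.84e-07). RPL3, a large-subunit protein, rose by 0.23, from 989–1059 CPM in NC to 1162–1248 CPM in NC-A. Without NC-A 1 there were again 36 higher and 0 lower, but without NC-A 2 only 21 were higher, and none passed against a minimum of 1.2-fold. Many ribosomal protein genes have near-identical pseudogenes, whose counts differed in NC-A 1, and the part of read assignment in these changes was not tested.

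Small nucleolar RNA host genes were also higher, where 9.32% of all tested genes rose and 10.9% fell. In this list 11 of 26 rose and none fell (edgeR's quasi-likelihood test), with a median of 0.29. At an unadjusted p under 0.05 1 was lower, and 0 were by DESeq2 or limma-voom. GAS5 had 40.6, 36 and 40.1 CPM in NC and 56.2, 55 and 55.7 CPM in NC-A, a 1.43-fold rise (log2 0.52 ± 0.0616, adjusted p = 9.82e-09). SNHG8 showed the largest called rise of the list, 0.81 on the log2 scale, at 1.93 to 2.91 CPM in NC and 4.19 to 5.01 CPM in NC-A; 14.2% of its exon bases are shared with another gene on its strand. Without NC-A 1, 10 were higher and 0 lower. As background, GAS5 transcripts are known to be degraded when ribosomes translate their short reading frames.

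Genes known as targets of the tumour suppressor p53 were also higher. Of 27 tested, 13 rose and none fell by edgeR's quasi-likelihood test, with a median of 0.18. None fell by DESeq2 or limma-voom, and 1 did at an unadjusted p under 0.05. Over all tested genes 9.32% rose and 10.9% fell. GADD45A, a growth arrest gene that ATF4 can also induce, went from 96.0–98.5 CPM in NC to 139–152 CPM in NC-A (log2 0.60 ± 0.0431, adjusted p = 5.61e-15). The oxidoreductase gene TP53I3 rose by 0.61, the antiproliferative gene BTG2 by 0.77 and MDM2, the ubiquitin ligase of p53, by 0.37. CDKN1A, the cell cycle inhibitor p21, rose by only 0.15 (SE 0.0408, adjusted p = 0.00585), from 260–281 CPM in NC to 292–313 CPM in NC-A. The CDKN1A call was lost when NC-A 2 was left out. Without NC-A 1 the list had 11 higher and 0 lower.

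**Figure D4:**
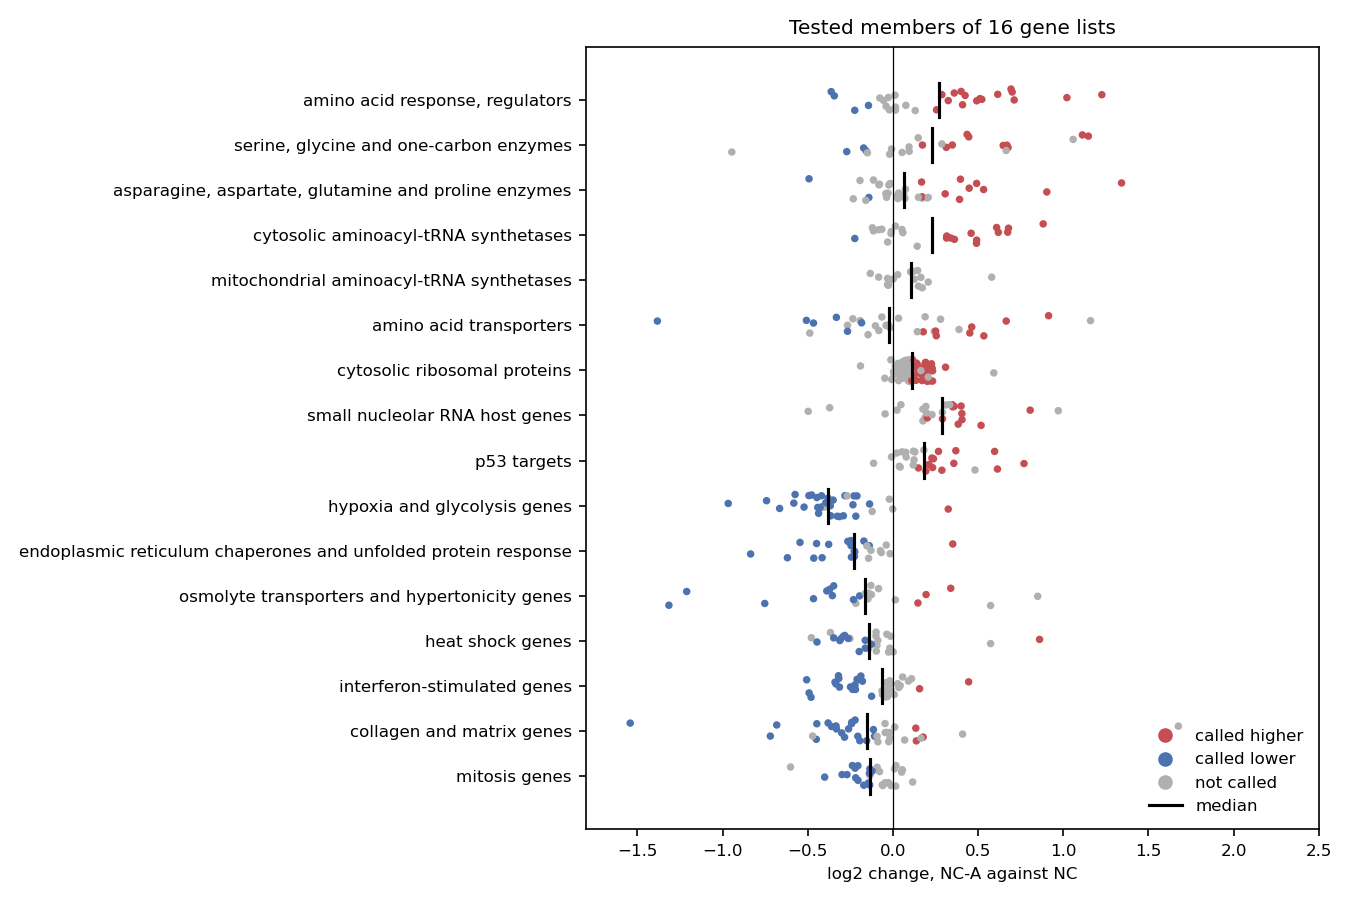
Log2 change of NC-A against NC (x axis) for the tested members of 16 gene lists; each point is a gene, red where called higher, blue where called lower and grey where not called, and the black bar is the list's median. The medians of the amino acid, synthetase, small nucleolar RNA host and p53 lists lie right of zero, except for the transporters, and hypoxia and glycolysis genes have the lowest median, at -0.38.

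Hypoxia and glycolysis genes fell almost throughout. Of 35 tested, 29 fell and 1 rose, with a median of -0.38 on the log2 scale, against 10.9% of all tested genes falling. Their summed level was 15031 to 15534 CPM in NC and 12282 to 12609 CPM in NC-A. BNIP3, a mitophagy receptor, had 327, 332 and 330 CPM in NC and 215, 206 and 203 CPM in NC-A, 1.59-fold lower (log2 -0.66 ± 0.0388, adjusted p = 4.79e-18). LDHA, the lactate dehydrogenase chain, had 1032, 1094 and 1028 CPM in NC and 711, 711 and 686 CPM in NC-A (log2 -0.58). The glycolytic kinase PGK1 was lower by 1.36-fold and the glucose transporter SLC2A1 by 1.39-fold, both without overlap. The fructose-2,6-bisphosphate enzyme PFKFB4 changed by -0.74 on the log2 scale, and the carbonic anhydrase CA9 by -0.97, from 12.4–14.2 CPM in NC to 6.49–6.83 CPM in NC-A. Of the CA9 exon bases, 38.5% are shared with a gene on the opposite strand.

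The exception was VEGFA, the vascular growth factor gene, which also belongs to the amino acid response list. VEGFA had 144, 146 and 146 CPM in NC and 183, 181 and 183 CPM in NC-A, a rise of 0.33 (SE 0.0396, adjusted p = 1.74e-08). HIF1A, the oxygen-regulated transcription factor of this pathway, is controlled mainly at the protein level. Its messenger RNA was at 900, 969 and 893 CPM in NC and 918, 931 and 942 CPM in NC-A, values that overlap, with a log2 difference of 0.02 ± 0.0346 (adjusted p = 0.807) whose sign turned under 4 other settings. Without NC-A 1 the list again had 29 lower and 1 higher, and 13 members were lower by more than 1.2-fold under the test against that minimum. PFKFB4, VEGFA and HIF1A were chosen after their values were seen.

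Genes of osmolyte uptake fell most in the inositol and taurine transporters. SLC5A3, the sodium-inositol cotransporter, had 368, 370 and 351 CPM in NC and 150, 144 and 145 CPM in NC-A. The fall was 2.49-fold (log2 -1.31 ± 0.042, adjusted p = 7.13e-28). SLC6A6, the taurine transporter, had 86.6, 84.6 and 78.2 CPM in NC and 34.3, 37.5 and 35.8 CPM in NC-A, a 2.31-fold fall (log2 -1.21 ± 0.0589, adjusted p = 6.53e-21). In both genes the highest NC-A library was well under the lowest NC library. NFAT5, the hypertonicity factor, had 205 to 215 CPM in NC and 153 to 169 CPM in NC-A (log2 -0.39 ± 0.0427, adjusted p = 1.60e-09). AKR1B1, the aldose reductase that makes sorbitol in lens cells, was not called, with 91.9, 92.2 and 93.6 CPM in NC and 88.8, 93.1 and 80.7 CPM in NC-A (log2 -0.08 ± 0.0495, adjusted p = 0.248).

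Over the whole osmolyte list, 10 of 23 tested members fell and 3 rose, with a median of -0.16, where 10.9% of all tested genes fell and 9.32% rose. The fallen members include SLC38A2, described above, and the heat shock gene HSPH1. The 3 that rose were ZFP36L1 (log2 0.15), a messenger RNA decay factor, and the volume-regulated anion channel genes LRRC8D (0.19) and LRRC8B (0.34). LRRC8D and ZFP36L1 were not called without NC-A 1, which left 1 higher and 11 lower, and LRRC8B was not called without NC-A 2 or without NC-A 3, or without any of the 3 NC libraries. GPCPD1, which breaks down the osmolyte glycerophosphocholine and was not in the list, was among the 12 largest rises with a mean count of 50 or more, no overlap and the same call without NC-A 1, from 15.5–16.9 CPM in NC to 33.3–34.3 CPM in NC-A (log2 1.06 ± 0.0796, adjusted p = 2.05e-14).

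Chaperones of the endoplasmic reticulum fell: 16 of 24 members of the unfolded protein response list were lower and 1 was higher, with a median of -0.23. The shares over all tested genes were 10.9% lower and 9.32% higher. HSPA5, the chaperone BiP, had 1306, 1327 and 1291 CPM in NC and 751, 724 and 725 CPM in NC-A. The groups were far apart, and HSPA5 was 1.78-fold lower (log2 -0.84 ± 0.0342, adjusted p = 1.36e-23). MANF, a secreted reticulum protein, changed by -0.62 on the log2 scale, the chaperone HYOU1 by -0.45 and the calcium-binding chaperone CALR by -0.42, from 2545–2621 CPM in NC to 1840–2029 CPM in NC-A. ERN1, which encodes the stress sensor IRE1, rose by 0.35 (SE 0.0783, adjusted p = 0.000754), from 19.6–22.8 CPM in NC to 25–29.8 CPM in NC-A. Without NC-A 1, 14 were lower and 1 higher.

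Cytosolic heat shock genes were lower by small amounts, with 11 of 27 lower, 1 higher and a median of -0.14. Over all tested genes 10.9% fell and 9.32% rose. Of the 4161 tested genes with a mean of 1000 counts or more, 1025 fell and 483 rose. HSPH1 had 469, 465 and 440 CPM in NC and 357, 357 and 365 CPM in NC-A (log2 -0.35 ± 0.0363, adjusted p = 3.90e-10), and the small heat shock protein gene HSPB1 changed by -0.31. HSPA1A was not called: it had 3.04, 1.45 and 1.90 CPM in NC and 1.33, 1.60 and 1.49 CPM in NC-A (log2 -0.48 ± 0.228, adjusted p = 0.14), and it is nearly identical to HSPA1B. HSPA1L, the third gene of that cluster, was the one that rose (log2 0.86), from 1.59–2.17 CPM in NC to 3.12–3.40 CPM in NC-A. Without NC-A 1 the counts were the same, 11 and 1. Against a minimum of 1.2-fold none passed in either direction.

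Of 33 targets of NRF2, the antioxidant transcription factor, 4 rose and 4 fell, with a median of -0.04. These shares are close to the 9.32% higher and 10.9% lower of all tested genes, so the values that follow describe single genes and not the list. HMOX1, the heme oxygenase, rose from 29.8, 31.0 and 35.9 CPM in NC to 43.9, 47.0 and 41.2 CPM in NC-A (log2 0.44 ± 0.0646, adjusted p = 1.20e-06). AKR1C1, an aldo-keto reductase, went the other way, from 7.71–8.64 CPM in NC to 3.68–4.51 CPM in NC-A (log2 -0.999 ± 0.14, adjusted p = 4.20e-07); it belongs to a family of near-identical genes. TXNIP, which inhibits thioredoxin and glucose uptake, rose by 0.56 (SE 0.0561, adjusted p = 2.93e-10), from 65.3–75 CPM in NC to 95.3–113 CPM in NC-A. Its relative ARRDC4 rose by 0.58. Both belong to a separate list of TXNIP, arrestin-domain and MondoA genes, in which 4 of 10 tested members rose and 3 fell. The other NRF2 targets called were SLC7A11, described above, TXNRD1 (0.18), a thioredoxin reductase, the heme transporter SLC48A1 (0.33), the malic enzyme ME1 (-0.40), the glutathione synthesis subunit GCLM (-0.28) and the transketolase TKT (-0.11). SLC48A1 lost its call without NC-A 2 or without NC-A 3.

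Collagen and interferon genes were lower in part, and inflammatory genes less so, where 10.9% of all tested genes fell and 9.32% rose. Of 37 tested collagen and matrix genes, 20 fell and 3 rose, with a median of -0.15. PLOD2, the collagen lysyl hydroxylase, had 218, 240 and 221 CPM in NC and 134, 140 and 138 CPM in NC-A (log2 -0.72 ± 0.0421, adjusted p = 4.93e-18). COL12A1 changed by -0.45, COL1A1 by only -0.24, from 1184–1264 CPM in NC to 1039–1047 CPM in NC-A, and COL3A1, with a mean of 26 counts, by -1.54. Those that rose included the laminin chains LAMA3 (0.18) and LAMB3 (0.13). LAMA3 lost its call without NC 2, NC 3, NC-A 2 or NC-A 3, and LAMB3 without NC 2. The growth factor receptor gene PDGFRB, a fibroblast marker, changed by -0.63, and 5 of 8 tested fibroblast markers (PDGFRB, COL1A1, COL3A1, COL1A2 at -0.26 and COL6A3 at -0.19) fell and none rose by edgeR, DESeq2 or limma-voom or at an unadjusted p under 0.05. Without NC-A 1 the matrix list had 18 lower and 3 higher.

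Among 38 interferon-stimulated genes, 18 fell and 2 rose, with a median of -0.06. OASL had 544, 507 and 548 CPM in NC and 386, 377 and 363 CPM in NC-A, 1.42-fold lower (log2 -0.51 ± 0.0379, adjusted p = 1.96e-14). HERC5, the ligase for the ubiquitin-like protein ISG15, changed by -0.49 and IFIT3 by -0.33. The 2 that rose were XAF1 (log2 0.44), a pro-apoptotic gene with 38.3% of its exon bases shared with a gene on the opposite strand, and IFI35 (0.16). The IFI35 call was lost without NC 1, NC 2, NC 3, NC-A 2 or NC-A 3. Without NC-A 1, 16 were lower and 2 higher.

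Of 24 tested inflammatory and NF-kappaB genes, 7 fell and 3 rose, with a median of -0.02. Over all tested genes 10.9% fell and 9.32% rose, so the share that rose is near that of all genes. The values that follow describe single genes. IL11, a cytokine of the interleukin 6 family, had 139, 154 and 160 CPM in NC and 56.5, 54.4 and 51.5 CPM in NC-A, 2.80-fold lower with no overlap (log2 -1.48 ± 0.058, adjusted p = 5.86e-19). The chemokine gene CCL2 changed by -0.93, from 14.2–15.4 CPM in NC to 6.47–9.65 CPM in NC-A, and NFKBIA, the inhibitor of NF-kappaB, by -0.50. The 3 that rose were the interleukin 1 genes IL1A (0.47) and IL1B (0.30) and the cytokine gene LIF (0.25), whose call was lost without NC 2, NC 3 or NC-A 2. IL1B went from 148–157 CPM in NC to 181–192 CPM in NC-A. Without NC-A 1, 6 fell and 2 rose.

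Mitosis genes were slightly lower. Over all tested genes 10.9% fell and 9.32% rose. Of the 4161 tested genes with a mean of 1000 counts or more, 1025 fell and 483 rose. Of 30 mitosis genes, 15 fell and none rose (edgeR's quasi-likelihood test; 0 by DESeq2 or limma-voom, 1 at an unadjusted p under 0.05), with a median of -0.13. The mitotic kinase gene AURKA had 117, 118 and 113 CPM in NC and 95.5, 98.2 and 90.4 CPM in NC-A (log2 -0.30 ± 0.047, adjusted p = 4.31e-06). MKI67, the marker of cycling cells, changed by -0.27. Without NC-A 1, 10 mitosis genes fell and none rose. Of 37 replication genes, 12 fell, among them the flap endonuclease FEN1 (log2 -0.30), but this count dropped to 5 without NC-A 1 and to 7 without NC 3. The primase gene PRIM1 was the 1 that rose (0.40); 16.2% of its exon bases are shared with a gene on its strand. None of the mitosis or replication genes passed against a minimum of 1.2-fold. The shares of replication genes, and of the cholesterol genes below, that fell were not far above that of genes with many counts. Their counts are therefore a description only. MYC, the growth transcription factor, rose by 0.40 (SE 0.0466, adjusted p = 7.33e-09), from 68.2–71.7 CPM in NC to 91.0–95.2 CPM in NC-A, while FOS, an AP-1 factor, changed by -0.80 at 1.96 to 4.68 CPM. Of 28 tested immediate early and AP-1 genes, 4 rose and 10 fell, with a median of -0.12. In cholesterol and fatty acid synthesis, 11 of 32 fell, with the desaturase SCD at a log2 change of -0.32. The 1 that rose was the kinase gene PMVK (0.30), whose call was lost without NC 2, NC 3, NC-A 2 or NC-A 3. In these bulk samples, fewer cells of a kind and less RNA per cell cannot be told apart.

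Of 9 tested lens markers, only SIX3 was called by edgeR's quasi-likelihood test (log2 -0.29 ± 0.106, adjusted p = 0.0469), and it was not called without NC-A 1 or in several other settings. PAX6 stood at 25.5, 24.1 and 26.0 CPM in NC and 23.8, 21.6 and 23.7 CPM in NC-A (log2 -0.13 ± 0.0758, adjusted p = 0.255), and GJA1 at a log2 difference of -0.06 ± 0.0431. Of 5 tested pigment cell markers, 2 rose, BEST1 and TYRP1, where 9.32% of all tested genes rose. BEST1 was at 0.966 to 1.80 CPM in NC and lost its call without NC 2; TYRP1 was at 0 to 0.0966 CPM in NC and 0.296 to 0.727 CPM in NC-A, and lost it without NC 1, NC 3 or NC-A 2.

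The 12 largest rises with a mean count of 50 or more, no overlap and the same call without NC-A 1 were led by ZMAT1, a zinc finger gene on chromosome X, with 2.61, 2.27 and 2.96 CPM in NC and 7.54, 8.21 and 7.52 CPM in NC-A (log2 1.56 ± 0.165, adjusted p = 4.86e-10). ULBP1, a ligand of the natural killer cell receptor NKG2D and a known ATF4 target, had 3.98, 4.83 and 5.45 CPM in NC and 12.6, 11.2 and 12.8 CPM in NC-A (log2 1.34 ± 0.125). The sulfotransferase gene SULT1C2 rose by 1.26. ADM2, a peptide hormone of the adrenomedullin family, rose by 1.15, from 9.26–11.4 CPM in NC to 20.6–24.3 CPM in NC-A. SP2-AS1, PAPPA2 and TMEM144 each rose by 1.15 as well; PAPPA2 encodes a protease of insulin-like growth factor binding proteins. SP2-AS1 is an antisense RNA, and reads of antisense genes cannot be told from those of their partners where counting ignores the strand. The others were ASNS, CHAC1, PSAT1, ALDH1L2 and GPCPD1, and the first 4 of these belong to the amino acid lists described above.

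By the same rule, the largest fall was that of PRSS35, a gene of the serine protease family, with 5.22, 8.01 and 7.39 CPM in NC and 0.591, 1.38 and 0.976 CPM in NC-A. It was 6.99-fold lower (log2 -2.81 ± 0.248, adjusted p = 3.14e-12), and -2.58 on the log2 scale without NC-A 1. After PRSS35 and IL11 came PECAM1 (-1.34), an adhesion receptor best known from endothelium, at 3.79 to 5.41 CPM in NC and 1.09 to 2.35 CPM in NC-A. SLC5A3 and SLC6A6 followed, then GPRIN3 (-1.18) and the zinc finger gene ZNF114 (-1.16), which had 17.7 to 19.8 CPM in NC and 8.44 to 8.58 CPM in NC-A. The ephrin receptor gene EPHB1 changed by -0.996 and PPFIA4, which encodes a liprin, by -0.94. AKR1C1 and CA9 were also among the 12. All of these groups were free of overlap, which the rule required.

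Transcripts that do not code for protein were more often higher than lower, a pattern described after the values were seen. Of 995 tested antisense genes, 77 rose and 5 fell, with a median of 0.19. Of 767 long intergenic RNAs, 66 rose and 10 fell (median 0.21), and of 166 processed transcripts, 32 rose and 2 fell (median 0.22). Protein-coding genes stood at 1395 higher and 1872 lower of 13499, with a median of -0.0056. Antisense genes took 0.230%, 0.240% and 0.231% of the counts in NC 1, 2 and 3 and 0.278%, 0.272% and 0.270% in NC-A 1, 2 and 3. Without NC-A 1, 57 antisense genes rose and 2 fell, and with any library left out 52 to 63 rose and 1 to 3 fell; for long intergenic RNAs these counts were 46 to 58 and 6 to 10, and for processed transcripts 23 to 28 and 1 to 3. Level and base composition moved with the direction too. Tested genes under 50 counts had a median change of 0.10 and those of 1000 counts or more one of -0.038, and of 5 equal bins by GC content the lowest had a median of 0.027 and the highest one of -0.052. With the trend over GC content removed, 74 antisense genes rose and 4 fell; the part of level in this pattern was not tested. Processed pseudogenes had 16 higher and 29 lower of 1066, with a median of -0.31 that was -0.043 without NC-A 1; with a library left out, 7 to 12 rose and 16 to 50 fell.

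The change with asparagine was then compared between cells without and with 1,2-DHN. DHN-A against DHN shares no library with NC-A against NC, and it had 7455 of 17889 genes called (41.7%, with 20.9% higher and 20.8% lower). Processed pseudogenes had 16 higher and 81 lower of 1066 there, with a median of -0.40. How their lower counts in DHN-A 1 and DHN-A 2 bear on this comparison was not tested. Of the 1668 genes that rose in NC-A, 817 (49.0%) also rose in DHN-A against DHN and 202 (12.1%) fell. Of the 1944 that fell, 876 (45.1%) also fell and 337 (17.3%) rose. The difference between the changes, an interaction term in the same fit, was called for 4592 of 17889 genes (25.7%), 2361 of them with the change in 1,2-DHN above that without it and 2231 below. With no filter on low counts 4161 were called, of which 62.9% had the change in 1,2-DHN above that without it, against 51.4% here. Against a minimum difference of 1.2-fold, 1411 were called. The change without 1,2-DHN is one side of this difference, so genes and lists picked for that change reach the threshold more often, and their counts below are a description only.

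Several groups that rose with asparagine alone changed differently in 1,2-DHN. Among the amino acid response genes, ATF4 changed by 0.71 without 1,2-DHN and by -0.07 with it (interaction -0.78, adjusted p = 1.43e-16), and CHAC1 by 1.23 and -0.42 (interaction -1.64). SLC3A2 changed by 0.53 without 1,2-DHN and by -0.94 with it. For 15 of the 30 tested members the change in 1,2-DHN was below that without it, and for 7 it was above. Of the ribosomal protein genes, 5 rose and 33 fell in DHN-A against DHN, and the difference was called for 46 of 78, all below zero. PSAT1 and ALDH1L2 rose in both settings, by 1.15 and 1.11 without 1,2-DHN and by 0.54 and 0.95 with it; the difference was called for PSAT1 (adjusted p = 4.10e-09) and not for ALDH1L2 (interaction -0.16, adjusted p = 0.243).

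Groups that fell also differed. Interferon-stimulated genes had 18 lower of 38 without 1,2-DHN, but 27 higher and 4 lower with it, and the difference was called for 32, all above zero. Mitosis genes had 15 of 30 lower without 1,2-DHN and 20 higher with it (difference called for 24, all above zero). Heat shock genes fell in both, 11 of 27 without 1,2-DHN and 24 with it, and for 24 the change was lower in 1,2-DHN; HSPA1A, for which no change was called with asparagine alone, changed there by -3.44 on the log2 scale. SLC5A3 changed by -1.31 without and -0.82 with 1,2-DHN, SLC6A6 by -1.21 and -0.92, and IL11 by -1.48 and -1.43. For IL11 the difference, 0.06, was not called (adjusted p = 0.675). Of the hypoxia and glycolysis genes, 15 fell and 4 rose in DHN-A against DHN, and the difference was called above zero for 20 of 35 and below zero for 5.

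**Figure D5:**
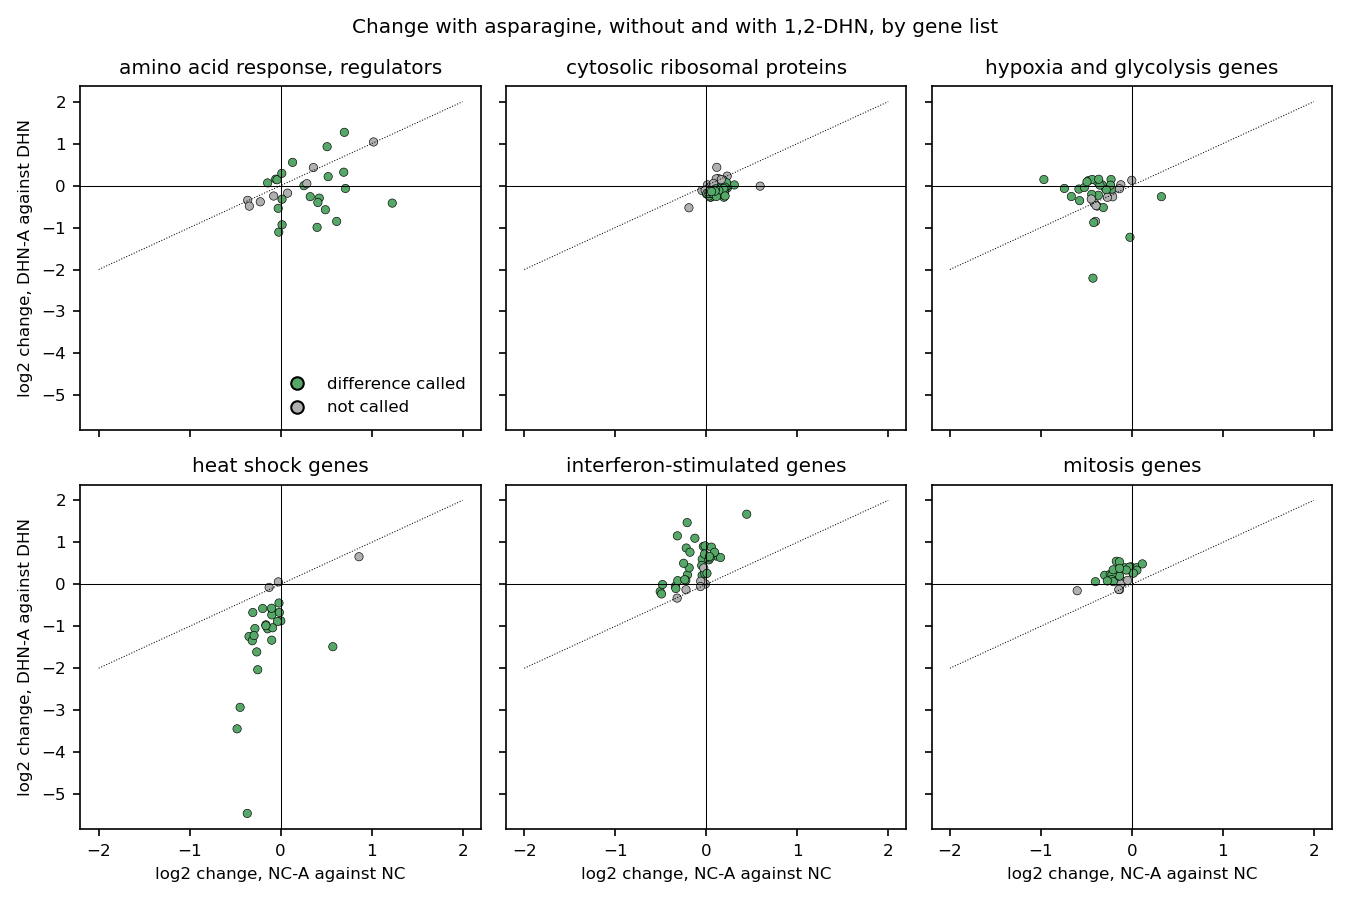
Log2 change with asparagine in cells without 1,2-DHN (x axis, NC-A against NC) and with it (y axis, DHN-A against DHN) for the tested members of 6 gene lists; points are genes, green where the difference between the changes was called, and the dotted line marks equal changes. Interferon-stimulated and mitosis genes lie mostly above the dotted line, and heat shock genes below it.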

How the data were processed

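Per the labels' protocols, RNA from 12 samples of SRA01/04 cells went into a stranded library kit. The authors deposited raw read counts per gene symbol with a length; the build was hg38 and the aligner Bowtie, per the submitters' processing notes, with version, counting tool, strand setting and annotation not given in the sources used here. Of 60641 symbols, 56202 matched GENCODE release 29 (GRCh38), the source of gene types, overlaps and coordinates. Promoters are from RefSeq.

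Of these symbols, 17889 passed filterByExpr with the 4 groups. Counts were scaled by trimmed means of M values and fitted with robust quasi-likelihood models in edgeR 4.0.16 (R 4.3.3) over all 12 libraries with 1 mean per group; p-values were adjusted by Benjamini-Hochberg over all tested genes, threshold 0.05. SE is the log2 change divided by the square root of F. The pipeline was tested on simulated data. Alternatives used limma 3.58.1 and DESeq2 1.42.0.

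Named genes were the 12 largest called rises and 12 largest falls with a mean of at least 50 counts, no overlap and the same call without NC-A 1, a set of 20 genes of interest, up to 4 genes with the smallest p in each of 35 lists, and further members of lists with 30 or fewer tested genes. GFPT1, HIF1A, PFKFB4, IFI35, XAF1, LAMA3, LAMB3, SLC1A3, SLC1A5, GCLM, TKT, TXNRD1, SLC48A1 and PMVK fall outside that rule and were chosen after their values were seen. Some genes that meet the rule are not reported here. The members and lists were chosen with earlier results of these data known. Lists held 931 genes, 846 of them tested, and are described by counts and medians, with no set test.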

Additional observations from a re-analysis of the deposited data

Results flagged for a closer look

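For 90 of the 125 named genes the change with asparagine differed between cells with and without 1,2-DHN, by edgeR's quasi-likelihood test of the difference (adjusted p under 0.05). Over all tested genes 25.7% were called, but most named genes were picked for their change with asparagine alone, which is one side of this difference, so the 2 shares cannot be compared. For 25 of the 90, the changes with asparagine were called in opposite directions. Values in parentheses are the log2 change in 1,2-DHN minus the log2 change without it; no explanation was tested.

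Among amino acid genes, the difference was below zero for the regulators and targets ASNS (-1.40), ATF4 (-0.78), CHAC1 (-1.64), SESN2 (-1.47), TRIB3 (-1.07), JDP2 (-0.37), DDIT3 (-0.95), ADM2 (-0.94) and ULBP1 (-1.73), for the enzymes PSAT1 (-0.61), PHGDH (-0.66), MTHFD2 (-0.72), SHMT2 (-0.32), PCK2 (-0.27) and GFPT1 (-0.19), for the synthetases NARS1 (-0.35), GARS1 (-0.87), YARS1 (-0.67), MARS1 (-0.30) and AARS1 (-0.21), and for the transporters SLC7A11 (-0.79), SLC3A2 (-1.47), SLC1A4 (-0.29) and SLC1A5 (-0.66). It was above zero for SLFN5 (0.57), QARS1 (0.33), EIF2AK1 (0.21), TYMS (0.19) and SHMT1 (0.47).

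Growth and stress genes with a difference below zero were the translation-linked GAS5 (-0.73), SNHG8 (-0.98) and RPL12 (-0.29), the p53 targets GADD45A (-1.18), MDM2 (-0.49), CDKN1A (-0.61) and BTG2 (-1.17), the heat shock and oxidative stress genes HSPH1 (-0.90), HSPB1 (-1.03), HSPA1A (-2.97), HMOX1 (-1.95), GCLM (-0.36) and TXNRD1 (-0.84), the transcription factors FOS (-2.70) and MYC (-0.69), and ERN1 (-1.04), VEGFA (-0.59), ARRDC4 (-0.46), LRRC8B (-0.52), PAPPA2 (-0.61), GPCPD1 (-0.58), PRIM1 (-0.43) and TYRP1 (-2.999).

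Differences above zero were found for the osmolyte transporters SLC5A3 (0.50) and SLC6A6 (0.29), the reticulum chaperones HSPA5 (0.39), CALR (0.23) and HYOU1 (0.53), the hypoxia and glycolysis genes CA9 (1.11), BNIP3 (0.41), LDHA (0.50), PGK1 (0.23), SLC2A1 (0.60) and PFKFB4 (0.67), the matrix genes COL1A1 (0.84), COL12A1 (0.45), PLOD2 (0.49), COL3A1 (1.87), COL1A2 (1.01), COL6A3 (1.05), LAMA3 (0.81) and LAMB3 (0.24), the interferon-stimulated genes OASL (0.33), HERC5 (0.26), IFIT3 (0.23), XAF1 (1.22) and IFI35 (0.48), and the inflammatory genes CCL2 (1.30) and NFKBIA (0.57). The same held for TXNIP (0.41), MKI67 (0.35), AURKA (0.51), SCD (0.56), PDGFRB (0.51) and GJA1 (0.21), and for the strongly lowered PRSS35 (1.15), PECAM1 (0.98), GPRIN3 (1.13), ZNF114 (0.96), EPHB1 (1.14) and PPFIA4 (1.06).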

How the results depend on the processing

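Of 125 named genes, 103 kept their direction and their side of the threshold in all 17 other settings, 20 kept their direction and changed side in at least 1, and 2 changed direction in some. The 2 are DDIT3 and HIF1A, neither of them called: DDIT3 was at -0.012 with no filter on low counts, -0.013 with the GC trend removed and from -0.051 (without NC 3) to 0.12 (without NC 1) when a library was left out, also below zero without NC 2 or NC-A 3. HIF1A was at -0.014 with no filter, -0.015 with the GC trend removed and from -0.0062 (without NC 3) to 0.053 (without NC 2) with a library left out, also below zero without NC 1; the cause was not tested. The count of genes called, 3612, moved by more than 1.5 times only when tested against a minimum change of 1.2-fold (381), a stricter question by construction. Leaving out each library in turn gave 2773 to 3261 called genes. It was 3644 with relative log expression factors, 3233 with DESeq2, 3340 with limma-voom, 3187 without a filter, 3191 after thinning every library to 12381071 counts, 3433 from the 6 libraries alone and, in settings chosen after seeing the data, 3529 over protein-coding genes and 3976 with the GC trend removed. A replicate block gave 3458 calls. The deviations of same-numbered NC and NC-A libraries correlated at -0.124, -0.106 and -0.0036, and those of differently numbered libraries at -0.112 to 0.148. With 3 libraries a group, these values cannot tell whether same-numbered libraries were handled together. For the difference between the settings with and without 1,2-DHN, 4592 calls became 4477 with the block, 4607 with relative log expression factors, 4239 with DESeq2 and 4420 without NC-A 1, but 1411 against a minimum difference of 1.2-fold, a setting added after seeing the data and also stricter by construction. Genes under 50 counts were called only for large changes, so a call missing there says little.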

Other observations

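Zinc finger genes with names in ZNF, ZSCAN or ZKSCAN were more often higher than lower with asparagine alone; they were looked at after the values were seen. Of 477 tested protein-coding members, 82 rose and 17 fell, with a median log2 change of 0.10, where 9.32% of all tested genes rose and 10.9% fell. Without NC-A 1, 62 zinc finger genes rose and 16 fell, and with the trend over GC content removed 78 rose and 22 fell. All tested genes under 50 counts also had a median of 0.10. Of the 2746 tested genes with a mean of 50 to 200 counts, 312 rose and 147 fell. The part of level in this pattern was not tested. In DHN-A against DHN 46 zinc finger genes rose and 191 fell, with a median of -0.16.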
